A study of Mus musculus with 2 samples.

Results

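The genes of glycolysis, pyruvate entry and the citric acid cycle were examined in granulocyte-monocyte progenitors (GMP), marrow cells committed to forming neutrophils and monocytes. The set was a list of 40 symbols that ran from the glucose transporters to malate dehydrogenase. It was defined by function, but with earlier results of these data known. Symbols were matched to the deposited gene identifiers through the GENCODE mouse annotation, and 40 of 40 had a row among the 21474 protein-coding genes measured.

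Total RNA was sequenced from primary cells of adult male C57BL/6J mice aged 5 to 6 weeks, with no treatment or mutation in the labels. The series held 1 group of 2 libraries, replicate 1 and replicate 2, each made from a pool of 100 cells with added spike-in RNA. Replicate 1 held 40509954 expected counts (estimated reads per gene) and replicate 2 held 35675702. The libraries share a donor identifier but differ in sample identifier, and whether they came from separate animals is not stated, so each SD is the spread of these 2 samples alone and may be technical.

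Glycolysis splits glucose into pyruvate in the cytosol, and pyruvate is then reduced to lactate or carried into mitochondria, where the pyruvate dehydrogenase complex turns it into the acetyl-CoA that feeds the citric acid cycle. Most steps have several isoenzymes, proteins from separate genes that run the same reaction with different kinetics or in different tissues. Mature neutrophils are known to rely mainly on glycolysis and to have few mitochondria, whereas their dividing precursors have more.

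The sorted identity was checked against marker genes. Of 10 genes that mark granulocyte-monocyte progenitors, 10 reached 1 TPM (transcript abundance corrected for length and scaled to a fixed total) in both libraries, led by the granule genes Mpo, with 6332 TPM in replicate 1 and 6602 TPM in replicate 2, and Elane, with 2983 and 3141 TPM. Of 10 erythroid markers, 1 did, and the 10 together summed to 2.83 TPM in replicate 1 and 3.16 TPM in replicate 2, with Alas2, Hbb-bs and Slc4a1 at 0 counts in both. Of 10 muscle and neuron markers, 0 did, with sums of 0 and 0.87 TPM and 8 genes at 0 counts in both libraries. Of 10 late neutrophil markers, 6 reached 1 TPM in both libraries, near the 45.6% of all protein-coding genes, so this count says little. The levels of these markers differed between the libraries. Of these markers 9 of 10 were higher in replicate 1, beside 4652 of the 10278 protein-coding genes of 1 TPM or more. The summed level of the markers was 723 TPM in replicate 1 and 316 TPM in replicate 2. S100a8 held most of the sum, with 448 and 233 TPM. Other markers were further apart, with 1310 and 23 counts for Ngp, 315 and 23 for Camp, 281 and 1 for Ltf, and 163 and 1 for Retnlg. Mmp8 was higher in replicate 2, with 72 and 135 counts. The part of late neutrophil cells in the replicate differences given below was not tested. In bulk RNA, fewer cells of a type and less RNA per cell cannot be told apart.

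Nearly the whole pathway was expressed. At 1 TPM or more in both libraries stood 37 of the 40 genes, against 45.6% of protein-coding genes, and the exceptions were Aldoc, Eno2 and Pklr. The mean level was 10 TPM or more for 31 genes, beside 6095 of the 21474 protein-coding genes. In both libraries 12 genes reached 100 TPM, beside 581 of the protein-coding genes. The share of 45.6% is also the background for the counts at 1 TPM in the marker lists above and the further lists below. Gapdh alone ranked among the 100 highest protein-coding genes, and 16 of the 40 ranked among the highest 1000. Together the 40 genes made up 0.978% ± 0.00525 of protein-coding TPM (SD, n = 2).

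The glycolytic genes carried most of this RNA, while the median was higher for the listed citric acid cycle genes than for the listed glycolytic genes. The 25 genes of glucose uptake, glycolysis and lactate summed to 3739 TPM in replicate 1 and to 3855 TPM in replicate 2. The 15 genes of pyruvate entry and the cycle summed to 1065 and 989 TPM. The ratio of these sums was 3.70 ± 0.27 (SD, n = 2), and 2.32 ± 0.14 with Gapdh left out. The median level on the log2(TPM + 1) scale was nevertheless 4.58 ± 0.06 for the 25 glycolytic genes and 5.81 ± 0.06 for the 15 others (SD over the medians of 2 libraries), beside 3.83 ± 0.04 for all protein-coding genes of 1 TPM or more. In both libraries the cycle set held no gene under 10 TPM, whereas the glycolytic set held tissue-restricted isoenzymes near 0. Pdha2 and Ogdhl, with 0 counts in both libraries, were not in the cycle set. The medians therefore depend on which isoenzymes were listed.

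**Figure D1:**
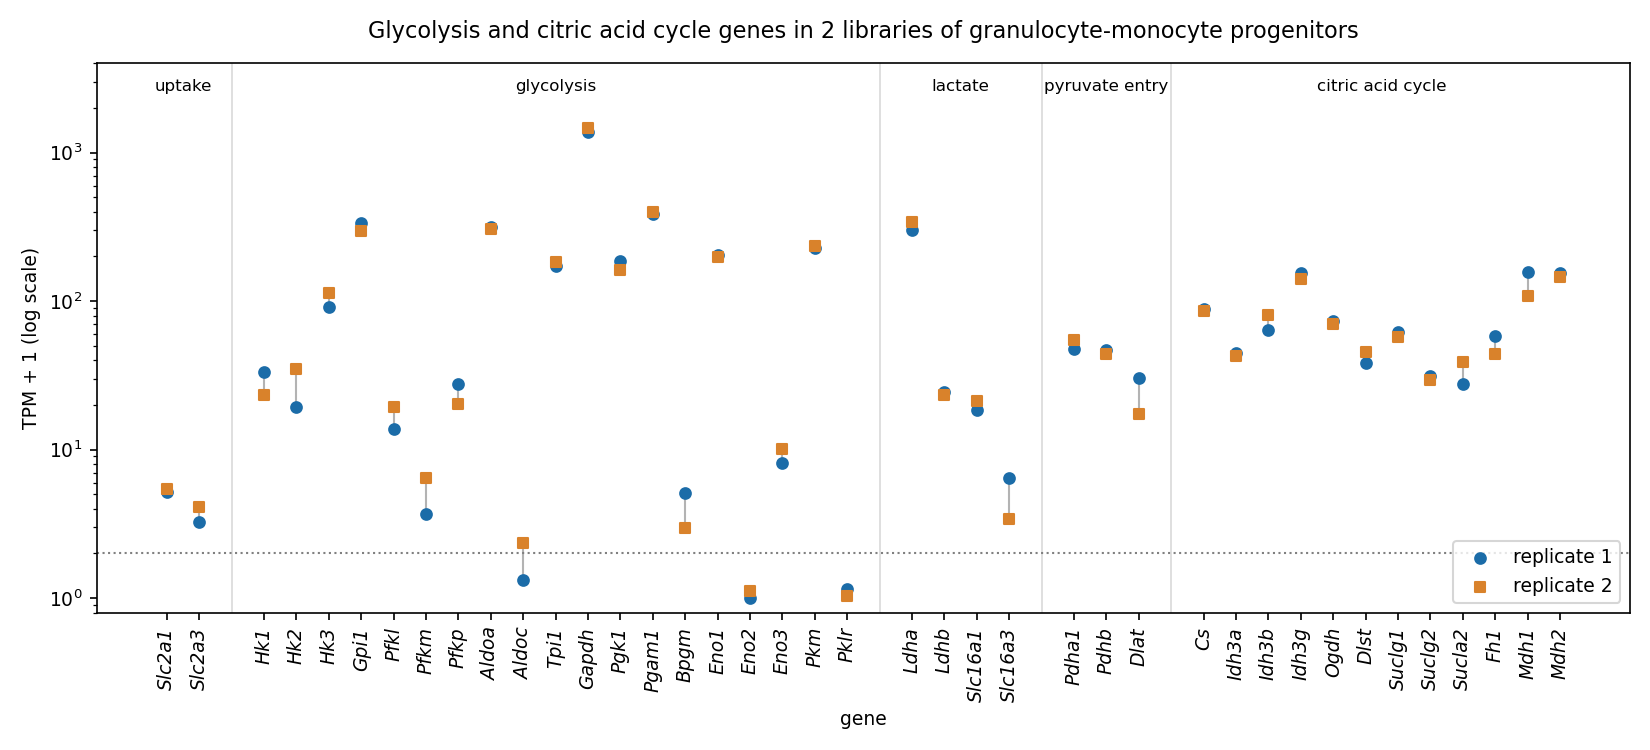
Level of each of the 40 genes (TPM + 1, log scale) in replicate 1 (circles) and replicate 2 (squares), grouped along the pathway; the grey line joins the 2 libraries of a gene and the dotted line marks 1 TPM. Gapdh stands highest at 1370 and 1465 TPM, and Aldoc, Eno2 and Pklr are the 3 genes not above the dotted line in both libraries.

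Isoenzymes were compared by TPM within each library, as 17 pairs in 11 families. A pair was called apart when both libraries of the higher gene lay above both libraries of the lower gene, and 14 of 17 pairs were. This share is near the 86.4% found among all pairs of protein-coding genes of 1 TPM or more, so the count says little about these genes in particular, and where both genes of the pair were at 1 TPM or more it was 10 of 13. The 3 overlapping pairs were Hk1 with Hk2, Sucla2 with Suclg2, and Mdh2 with Mdh1. With 2 libraries no test was made.

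**Figure D2:**
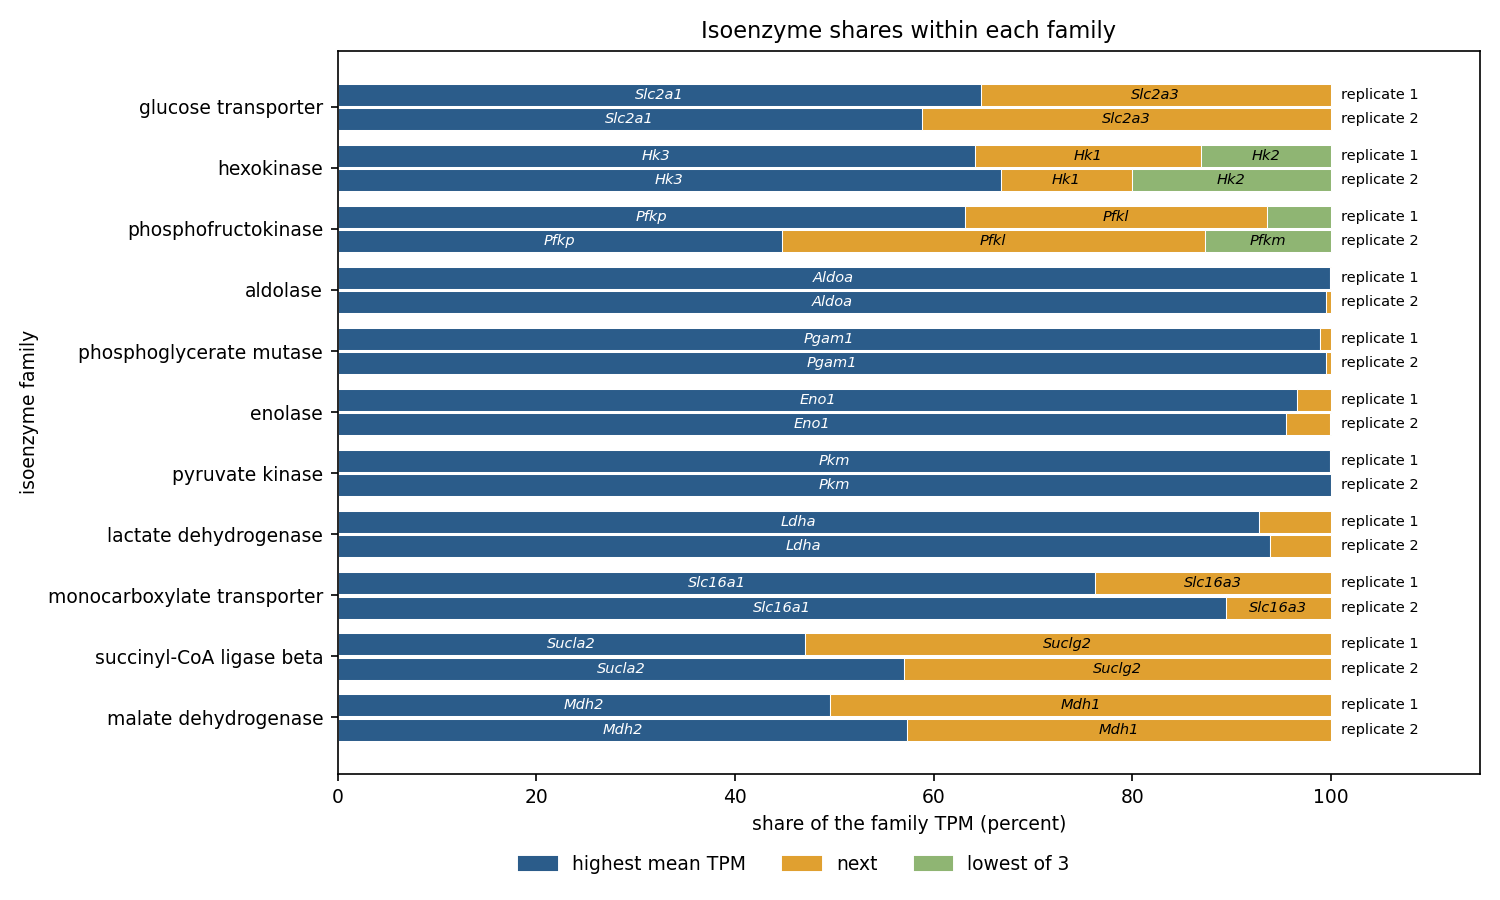
Share of the summed TPM of each family (percent) held by each isoenzyme, with 1 bar for each library. Aldoa, Pgam1, Eno1, Pkm and Ldha hold over 90 percent of their families in both libraries, while the phosphofructokinases, succinyl-CoA ligase beta subunits and malate dehydrogenases are divided.

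Glucose enters through GLUT transporters, and their RNA was low. Slc2a1, which encodes the widely expressed GLUT1, had 4.15 TPM in replicate 1 and 4.44 TPM in replicate 2, from 298 and 285 counts. Slc2a3, which encodes the high-affinity GLUT3, had 2.26 and 3.11 TPM, from 263 and 265 counts. Slc2a1 therefore held 61.8% ± 4.20 of their summed TPM (SD, n = 2), but in CPM (counts scaled by the total of the library, with no correction for length) the genes overlapped, with 7.36 and 7.99 for Slc2a1 and 6.49 and 7.43 for Slc2a3. Of the other transporters examined, Slc2a6 had 2.21 TPM in replicate 1 and 3.51 TPM in replicate 2, near Slc2a3, and Slc2a8 had 1.90 and 2.31 TPM. Slc2a2 and Slc2a4, of liver and of muscle and fat, had 0 counts in both libraries.

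Hexokinases trap glucose as glucose-6-phosphate, and Hk3 led in these cells. Hk3, the form known from myeloid cells, had 90.7 TPM in replicate 1 and 112 TPM in replicate 2, and held 65.5% ± 1.81 of hexokinase TPM (SD, n = 2). Hk1, the ubiquitous form, had 32.1 and 22.3 TPM, and Hk2, a regulated form known from muscle and dividing cells, had 18.4 and 33.7 TPM. Hk3 lay above the other hexokinases in both libraries, by 3.73-fold over Hk1 and 3.89-fold over Hk2 in mean TPM. On protein-coding transcripts alone Hk3 had 79.1 and 76.1 TPM, and its lead was 3.03-fold over Hk1 and 6.09-fold over Hk2.

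The order of Hk1 and Hk2 turned between the libraries. In counts the pair did not overlap, with 2916 and 2014 for Hk1 and 1999 and 1897 for Hk2. The deposited transcript tables place 60.6% of Hk2 TPM in replicate 2 and 33.9% in replicate 1 on Hk2-202, a non-coding transcript of 594 bases, from only 234 and 79.6 counts. With protein-coding transcripts alone, Hk1 had 30.6 and 20.6 TPM and Hk2 had 12.2 and 13.3 TPM, and the libraries no longer overlapped. The hexokinase-like gene Hkdc1 had 0 counts in both libraries.

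Phosphofructokinase makes the committed step of glycolysis, and its RNA summed to 42.4 ± 0.65 TPM (SD, n = 2), the lowest total of the steps between hexokinase and lactate dehydrogenase. Pfkp, named for platelets, had 26.5 TPM in replicate 1 and 19.2 TPM in replicate 2, and Pfkl, the liver form, had 12.7 and 18.2 TPM. Pfkm, the muscle form, had 2.71 and 5.45 TPM. Pfkp held 54.0% ± 13.0 of the family (SD, n = 2), with 63.2% in replicate 1 and 44.7% in replicate 2, so that its lead over Pfkl was narrow in replicate 2.

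Much of the Pfkp RNA was assigned to transcripts without a coding label. Protein-coding transcripts held 53.3% of Pfkp TPM in replicate 1 and 77.5% in replicate 2. Counted that way, Pfkp had 14.1 and 14.9 TPM and Pfkl had 12.7 and 14.9 TPM, and the pair overlapped. The exons of Pfkp share 748 bases with the gene Pitrm1 on the opposite strand, which had 24.4 and 21.3 TPM, and it is not stated whether counting used strand, so both genes are uncertain. All 5 genes that make or remove fructose 2,6-bisphosphate, the main activator of phosphofructokinase, were at 1 TPM or more in both libraries. Pfkfb3, an inducible form of the enzyme that makes it, was the highest of them with 35.8 and 21.5 TPM, followed by Tigar with 5.54 and 5.15 TPM, Pfkfb1 with 5.01 and 5.58 TPM, and Pfkfb2 with 3.14 and 4.39 TPM.

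From aldolase to pyruvate kinase, 1 gene carried almost all of each family. Aldoa had 313 TPM in replicate 1 and 307 TPM in replicate 2, whereas Aldoc, the brain form, had 0.33 and 1.35 TPM from 6 and 15 counts. Pgam1, the mutase of the main pathway, had 383 and 395 TPM, whereas Bpgm, which makes the haemoglobin regulator 2,3-bisphosphoglycerate in red cells, had 4.14 and 1.96 TPM. Their shares were 99.7% ± 0.24 for Aldoa and 99.2% ± 0.41 for Pgam1 (SD, n = 2). Bpgm was higher in replicate 1, as was Gata1, the erythroid marker at 1 TPM or more in both libraries, with 2.11 and 1.07 TPM, whereas the haemoglobin gene Hba-a1 had 0 and 1.34 TPM. The part of erythroid cells in the Bpgm difference was not tested.

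The enolases and pyruvate kinases showed the same division between a general and a tissue-restricted form. Eno1, the general enolase, had 204 TPM in replicate 1 and 197 TPM in replicate 2 and held 96.1% ± 0.78 of the family (SD, n = 2). Eno3, the muscle form, had 7.08 and 9.11 TPM. Eno2, the neuronal form, had 0 counts in replicate 1 and 7 counts or 0.11 TPM in replicate 2. For a count of 0 in replicate 1, counting error alone gives an approximate upper limit of 0.0741 CPM. Pkm had 229 and 235 TPM, whereas Pklr, the form of liver and red cells, had 0.15 and 0.03 TPM from 12 and 2 counts.

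Several steps were represented by a single gene. Gapdh, which makes the first NADH of glycolysis, had 1370 TPM in replicate 1 and 1465 TPM in replicate 2, and made up 29.4% ± 1.22 of the TPM of all 40 genes (SD, n = 2). Gpi1 (glucose-6-phosphate isomerase) had 334 and 297 TPM, Tpi1 (triosephosphate isomerase) 170 and 182 TPM, and Pgk1 (phosphoglycerate kinase, which makes the first ATP) 186 and 160 TPM. These levels differed from each other by more than the libraries did, except that Tpi1 and Pgk1 overlapped. The testis- or muscle-restricted forms Gapdhs, Pgk2, Pgam2 and Eno4 had 0 counts in both libraries. The mitochondrial lactate dehydrogenase Ldhd also had none.

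**Figure D3:**
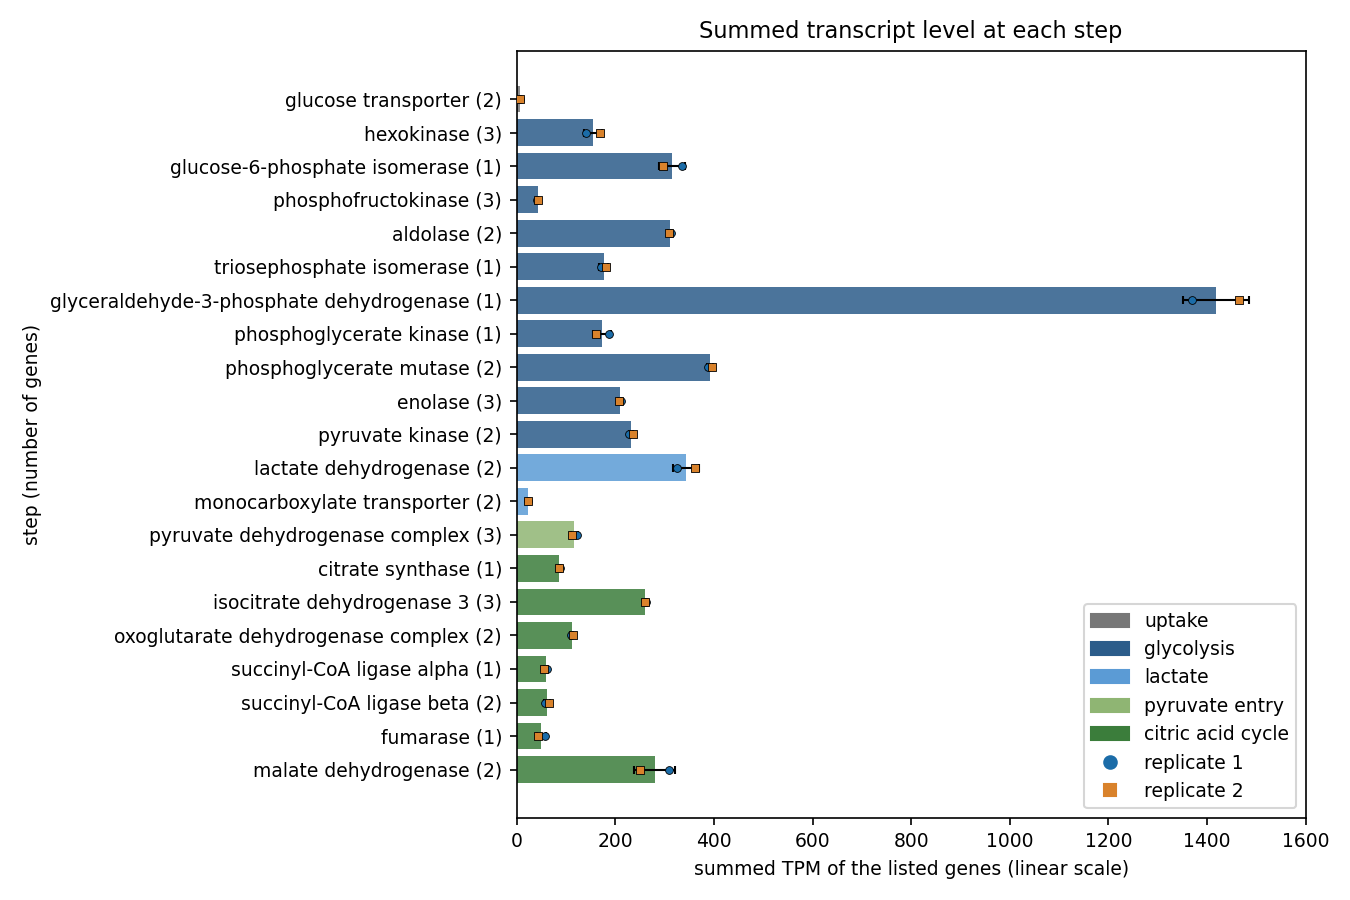
Summed TPM of the listed genes at each step (bars, mean of 2 libraries; error bars, SD; circles and squares, replicates 1 and 2), with the number of genes summed in brackets. Gapdh is highest at 1418 TPM; the glucose transporters (6.98 TPM), monocarboxylate transporters (22.8 TPM) and phosphofructokinases (42.4 TPM) are the lowest steps.

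Pkm encodes the pyruvate kinases M1 and M2 from a pair of mutually exclusive exons of equal length. M1 is known from muscle and brain, and M2, whose activity is regulated by fructose 1,6-bisphosphate, from dividing cells and leukocytes. The deposited tables hold 1 transcript for each form, both of 2432 bases, on chromosome 9 of GRCm38 (plus strand). The M2 exon lies at chr9:59675568-59675734 and the M1 exon upstream at chr9:59675029-59675195. Each has 167 bases, or 6.87% of the transcript. They are printed here because the split between the forms rests on the reads that reach them, and capitals mark the 64 positions at which they differ.
M2 exon: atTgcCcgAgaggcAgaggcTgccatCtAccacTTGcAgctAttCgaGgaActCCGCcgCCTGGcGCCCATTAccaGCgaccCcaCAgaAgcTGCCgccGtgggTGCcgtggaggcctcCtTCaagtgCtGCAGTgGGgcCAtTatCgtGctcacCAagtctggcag
M1 exon: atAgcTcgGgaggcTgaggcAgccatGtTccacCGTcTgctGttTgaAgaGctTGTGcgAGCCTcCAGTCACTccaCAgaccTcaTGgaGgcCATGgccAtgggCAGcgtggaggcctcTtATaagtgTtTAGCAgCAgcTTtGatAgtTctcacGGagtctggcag

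The M2 form predominated in both libraries. Its transcript Pkm-201 held 83.9% of Pkm TPM in replicate 1 and 91.5% in replicate 2, a mean of 87.7% ± 5.35 (SD, n = 2). The M1 transcript Pkm-202 held 16.1% and 8.50%. In expected counts, the M2 transcript had 12808 and 12823, and the M1 transcript had 2450 and 1192. In TPM, the M2 transcript had 192 and 215, and the M1 transcript had 36.7 and 20.0, so M2 was higher in replicate 2 and M1 in replicate 1. Of the muscle and neuron markers, Ckm had 0 counts in replicate 1 and 28 in replicate 2, and Snap25 had 0 and 1.

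Ldha, which encodes the M subunit of lactate dehydrogenase, had 302 TPM in replicate 1 and 339 TPM in replicate 2. Ldhb, which encodes the H subunit of heart, had 23.6 and 22.3 TPM, and Ldha held 93.3% ± 0.77 of the pair (SD, n = 2). The exporter genes stood far lower. Slc16a1, which encodes the lactate carrier MCT1, had 17.4 and 20.4 TPM, and Slc16a3, which encodes MCT4, a carrier known from highly glycolytic cells, had 5.41 and 2.41 TPM. The counts of Slc16a3 went the other way, with 146 in replicate 1 and 179 in replicate 2, and 63.1% of its TPM in replicate 1 but 0% in replicate 2 lay on Slc16a3-205, a retained-intron transcript of 677 bases. With protein-coding transcripts alone Slc16a3 had 2.00 and 2.41 TPM. Bsg, which encodes the chaperone basigin that brings both carriers to the membrane, had 121 and 153 TPM and was the highest of the other glycolysis and lactate genes. Adpgk, an ADP-dependent glucokinase, followed with 22.8 and 20.8 TPM, then Minpp1, a phosphatase that also acts on 2,3-bisphosphoglycerate, with 17.3 and 21.2 TPM, and Eno1b, a close copy of Eno1, with 6.26 and 3.75 TPM. Slc16a7, a further gene of the Slc16a carrier family, was next with 6.00 and 3.80 TPM, beside 5.41 and 2.41 TPM for Slc16a3. In this list 7 of 19 genes were at 1 TPM or more in both libraries, beside 45.6% of protein-coding genes. In it 10 genes had 0 counts in both, an approximate limit by counting error alone of 0.0741 CPM for replicate 1 and of 0.0841 CPM for replicate 2.

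Of the 3 pyruvate dehydrogenase genes in the set, the core subunit stood below the others in TPM in both libraries. Pdha1 and Pdhb, which encode the alpha and beta chains of the first enzyme, had 46.8 and 46.2 TPM in replicate 1 and 53.4 and 42.9 TPM in replicate 2. Dlat, which encodes the acetyltransferase core, had 29.2 TPM in replicate 1 and 16.3 TPM in replicate 2, and its counts of 2101 and 1361 differed in the same direction. In replicate 1 these counts, not scaled for length, exceeded the 1796 of Pdhb. Retained-intron transcripts held part of Dlat TPM, with 37.7% on Dlat-206 in replicate 1 and 21.2% on Dlat-203 in replicate 2. With protein-coding transcripts alone Dlat had 17.3 and 12.8 TPM. Of 13 further genes of pyruvate entry, 10 were at 1 TPM or more in both libraries. The carrier subunits Mpc1 (80.4 and 73.7 TPM) and Mpc2 (52.4 and 51.2 TPM) were the highest, ahead of Dld (39.1 and 43.5 TPM), a subunit shared with other dehydrogenase complexes, and the inhibitory kinase Pdk3 (20.5 and 28.6 TPM). Pdk4, a kinase induced by fasting, and the testis form Pdha2 had 0 counts in both.

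Each of the 12 citric acid cycle genes was at 10 TPM or more in both libraries, beside 5595 of the 21474 protein-coding genes. Cs, citrate synthase, had 87.0 TPM in replicate 1 and 85.5 TPM in replicate 2. Ogdh and Dlst, the first and second enzymes of the oxoglutarate dehydrogenase complex, had 72.3 and 37.6 TPM in replicate 1 and 69.4 and 44.3 TPM in replicate 2. Fh1, fumarase, had 57.0 and 43.3 TPM, while its counts of 1983 and 1910 differed by less than the library totals did.

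The 3 subunits of the NAD-dependent isocitrate dehydrogenase stood apart from each other in TPM in both libraries. Idh3g, which encodes the regulatory gamma chain, had 155 TPM in replicate 1 and 140 TPM in replicate 2. Idh3b, the beta chain, had 62.8 and 79.7 TPM, and Idh3a, the catalytic alpha chain, had 44.1 and 41.4 TPM. The enzyme is known to contain more alpha chains than beta or gamma chains, so the order of the RNA levels was not that of the subunits. Idh3g exceeded Idh3a 3.44 ± 0.10-fold in TPM (SD, n = 2), and 2.49 ± 0.33-fold when only protein-coding transcripts were counted. Idh3b exceeded Idh3a 1.67 ± 0.35-fold in TPM, and 1.24 ± 0.20-fold on protein-coding transcripts. By CPM Idh3b (57.3 and 70.5) and Idh3a (71.7 and 68.3) overlapped. Idh2, the NADP-dependent mitochondrial enzyme and not a member of the set, had 124 and 144 TPM.

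Succinyl-CoA ligase pairs the alpha chain Suclg1 with a beta chain that sets the nucleotide, Sucla2 for ATP or Suclg2 for GTP. Suclg1 had 61.4 TPM in replicate 1 and 56.2 TPM in replicate 2. Sucla2 had 26.8 and 38.0 TPM and Suclg2 had 30.2 and 28.6 TPM, so the beta chains overlapped, and their sum was 61.8 ± 6.78 TPM (SD, n = 2) beside 58.8 ± 3.67 TPM for Suclg1. In replicate 2, 22.8% of Sucla2 TPM lay on Sucla2-205, a retained-intron transcript of 461 bases that held 0% in replicate 1. With protein-coding transcripts alone, Suclg2 (30.2 and 28.6 TPM) stood above Sucla2 (26.8 and 27.1 TPM) in both libraries, and by CPM it did so too, with 46.4 and 44.6 against 38.4 and 42.3.

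Malate dehydrogenase has a mitochondrial form, Mdh2, that acts in the cycle, and a cytosolic form, Mdh1, that acts in the malate-aspartate shuttle. Mdh2 had 153 TPM in replicate 1 and 143 TPM in replicate 2, and Mdh1 had 156 and 107 TPM, so the pair overlapped. Protein-coding transcripts held 62.2% and 62.1% of Mdh2 TPM, since Mdh2-203, a transcript annotated for nonsense-mediated decay, held 35.5% and 35.9%. On protein-coding transcripts alone the order turned, with 139 and 105 TPM for Mdh1 and 95.4 and 89.1 TPM for Mdh2, and the pair did not overlap. That order rested on Mdh1-202, of 549 bases and labelled protein-coding, which held 39.2% and 38.7% of Mdh1 TPM from 698 and 424 counts. The longer Mdh1-201, of 2122 bases, had 78.1 and 64.2 TPM, below Mdh2-201 with 95.4 and 89.1 TPM.

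Further genes of the cycle and of reactions linked to it, which are not among the 40, were read from a list of 18. Of these, 14 were at 1 TPM or more in both libraries. After Idh2 the highest were the succinate dehydrogenase genes, with 80.6 TPM in replicate 1 and 110 TPM in replicate 2 for Sdhd, Sdha at 91.1 and 89.6 TPM, and Sdhb at 79.8 and 68.8 TPM. Ogdhl had 0 counts in both libraries, as did Me1, Me3 and Pck1, which do not encode enzymes of the cycle itself. Of 10 pentose phosphate genes, which draw glucose-6-phosphate away from glycolysis to make NADPH and ribose, 8 were at 1 TPM or more in both. Tkt led with 166 and 187 TPM, followed by Taldo1 with 148 and 124 TPM, Pgd with 113 and 106 TPM, and G6pdx, the entry enzyme, with 78.6 and 80.6 TPM. Tktl1 and Tktl2 had 0 counts in both libraries.

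Transcripts of the 40 genes were read from the deposited shares of TPM (the percent of the gene total that a transcript holds). The genes had 231 transcripts in the tables. Among 32 genes with at least 2 transcripts and counts in both libraries, the highest transcript held 80% or more on average for 12 and less for 20. It was the same transcript in both libraries for 23 of the 32. Limited to genes of 10 TPM or more, it differed for 5 of 24, against 26.9% of protein-coding genes, so the set lay near the background.

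**Figure D4:**
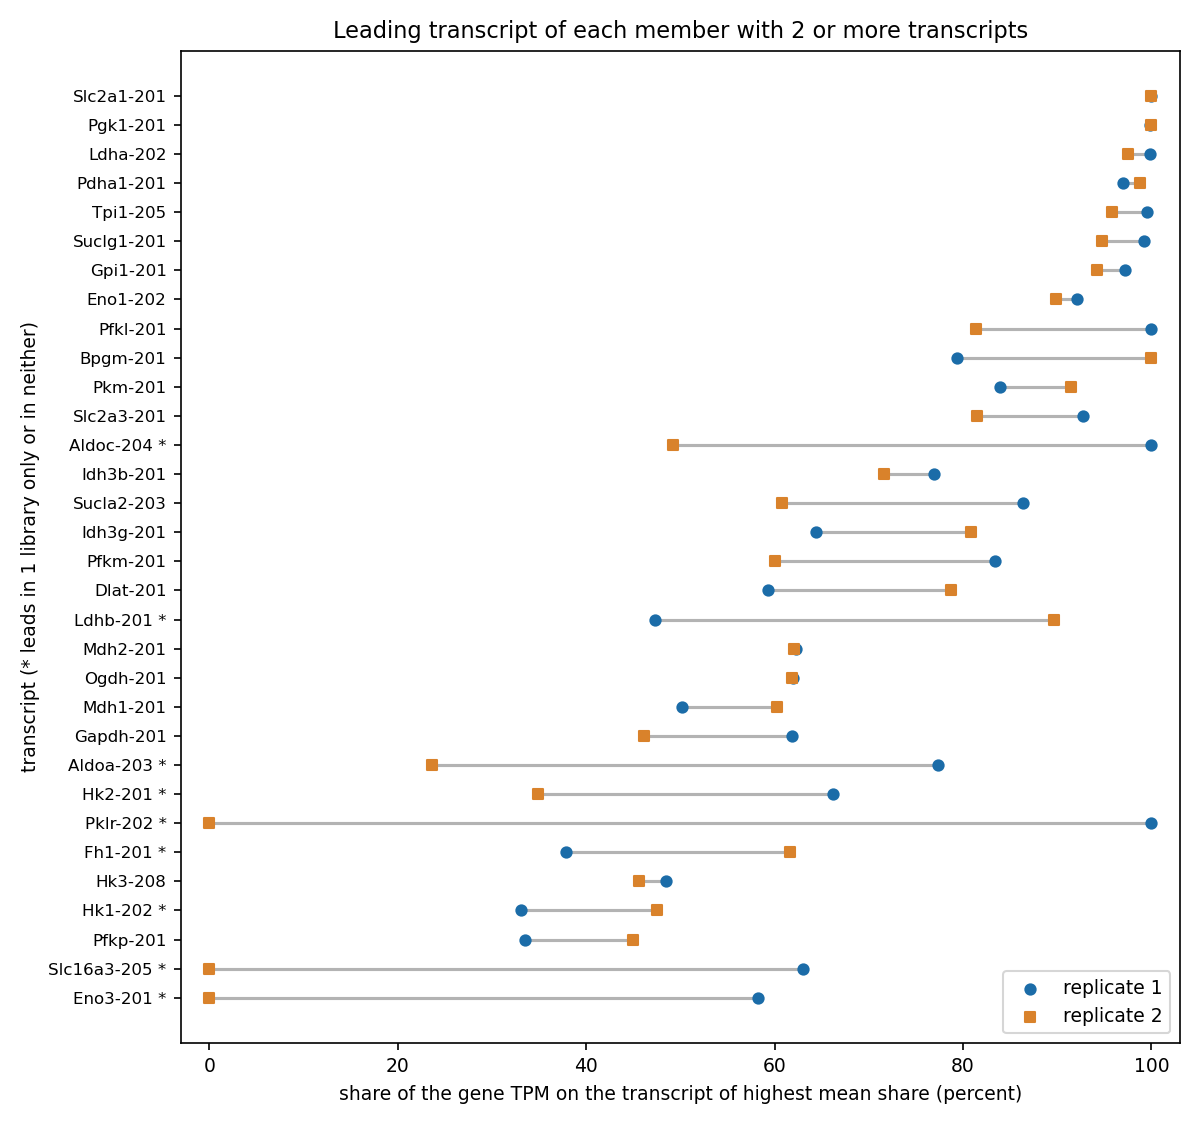
Share of each gene's TPM (percent) on its transcript of highest mean share, in replicate 1 (circles) and replicate 2 (squares), for the 32 genes with at least 2 transcripts; an asterisk marks the 9 genes whose highest transcript differed between libraries. Ldha-202 and Pgk1-201 lie near 100 in both libraries, whereas Aldoa-203 lies at 77.4 in replicate 1 and 23.7 in replicate 2.

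At 10 TPM or more, the 5 genes whose highest transcript differed were Aldoa, Hk1, Hk2, Ldhb and Fh1. Aldoa-203, of 1460 bases, held 77.4% in replicate 1 and 23.7% in replicate 2, while Aldoa-201, of 1511 bases, held 20.1% and 72.8%. Both are labelled protein-coding, and the gene total differed by little. In Gapdh, Gapdh-201 led in both libraries with 61.8% and 46.2%, and Gapdh-202, which differs from it in length by 1 base, held 13.7% and 37.2%. Hk1-201 held 41.7% and 34.3%, and Hk1-202 held 33.1% and 47.5%.

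In Ldhb and Fh1 the change was between a long and a short transcript. Ldhb-202, of 685 bases, held 52.7% in replicate 1 and 10.4% in replicate 2, against 47.3% and 89.6% for Ldhb-201 of 1304 bases. Fh1-205, of 542 bases, held 49.7% and 36.5%, against 37.9% and 61.7% for Fh1-201 of 2636 bases. By counts, Ldhb-201 and Fh1-201 led in both libraries. Below 10 TPM the highest transcript also differed in Aldoc, Eno3, Pklr and Slc16a3, whose gene counts were 2 to 180 per library.

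Other genes had the same highest transcript by TPM in both libraries but shared their TPM between several. Hk3-208 led Hk3 with 48.4% and 45.6%, Pfkp-201 led Pfkp with 33.5% and 45.0% (by counts Pfkp-207 led in replicate 2), and Ogdh-201 led Ogdh with 61.9% in each library. Mdh1-201 held 50.2% and 60.2%, and Mdh2-201 held 62.2% and 62.1%. The highest transcripts of Dlat, Idh3b, Idh3g, Pfkm and Sucla2 held between 59.2% and 86.3%. The 7 genes with 1 transcript in the tables were Cs, Dlst, Idh3a, Pdhb, Pgam1, Slc16a1 and Suclg2, in which no such division can arise.

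The 2 libraries gave similar levels for the set. Of 31 genes at 10 TPM or more, 0 were over 2-fold apart on the log2(TPM + 1) scale, against 3.13% of protein-coding genes at that level. With so small a share, a count of 0 among 31 genes says little about the set in particular. The widest was Hk2, 1.78-fold higher in replicate 2 on that scale, followed by Dlat, whose difference (replicate 2 minus replicate 1) was -0.80. With protein-coding transcripts alone the difference was 0.11 for Hk2 and -0.40 for Dlat. Of all 40, 19 were higher in replicate 2 and 21 in replicate 1. Of the 10278 protein-coding genes of 1 TPM or more, 5611 were higher in replicate 2 and 4652 in replicate 1.

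The TPM of a gene depends on the effective length its transcripts give it, and this differed between libraries for some of the set. Of the 31 genes, 6 had an effective length over 1.2-fold different between the libraries, against 17.9% of protein-coding genes at that level, so the set lay near the background. They were Hk2, Pfkl, Sucla2, Ldhb, Dlat and Fh1. For Hk2 the effective length was 3687 bases in replicate 1 and 2148 bases in replicate 2, and the counts were 1999 and 1897. The log2 difference of Hk2 (replicate 2 minus replicate 1) was 0.84 by TPM + 1 and 0.11 by CPM + 0.1. For Fh1 it was -0.39 by TPM + 1 and 0.13 by CPM + 0.1. In 3 of the 31 genes the 2 measures differed in sign.

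**Figure D5:**
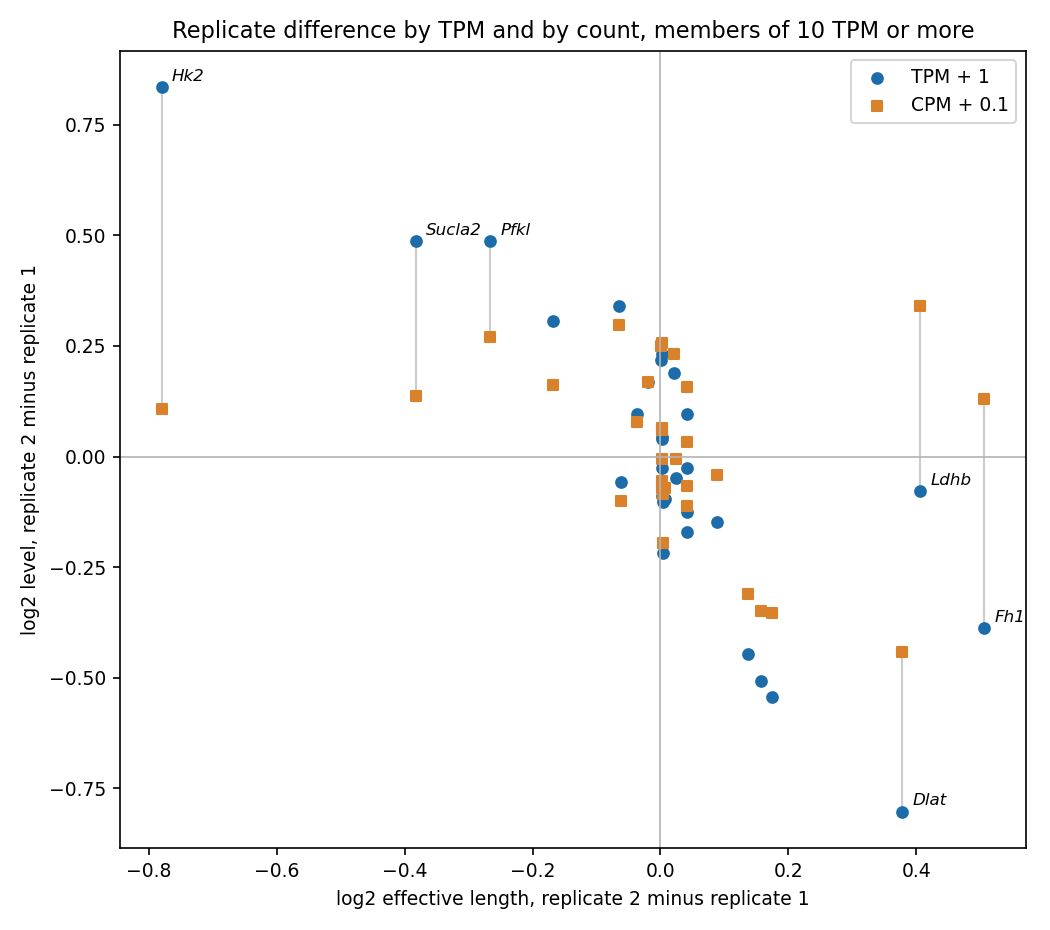
Log2 difference of level (replicate 2 minus replicate 1) against log2 difference of effective length for the 31 genes of 10 TPM or more, by TPM + 1 (circles) and by CPM + 0.1 (squares); grey lines join the measures for the 6 named genes whose effective length differs over 1.2-fold. For Hk2 the circle is at 0.84 and the square at 0.11.

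Some reads of these genes cannot be placed with certainty, because several have near-identical copies in the genome. Copies were taken as annotated transcripts of another gene with at least 95% identity over at least 200 bases and 0.5 of their length, and 8 genes had 80 of them. Gapdh had 71 copies, which held 2.71% of the combined counts in replicate 1 and 3.05% in replicate 2. The copy Pgk1-rs7 held 5.93% and 12.3% of the counts combined with Pgk1, Pgam1-ps2 held 3.19% and 1.48% of those with Pgam1, and the 2 copies of Eno1 held 2.90% and 2.31%. For the other genes with copies the share was under 1%. The coding sequences of isoenzymes of 1 family were far less alike, with 56.3% identity between Mdh2 and Mdh1 and 77.8% between Eno3 and Eno2, and their longest shared run was 31 bases, between Pkm and Pklr.

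The genes are scattered over the genome except on chromosome 6. There lay 9 of the 40, or 22.5%, beside 5.03% of all protein-coding genes. Eno2 (chr6:124760053-124769673, minus strand), Tpi1 (chr6:124810586-124814296, minus strand) and Gapdh (chr6:125161715-125166467, minus strand) follow each other, with 40912 bases between Eno2 and Tpi1 and 347418 bases between Tpi1 and Gapdh. Their levels were as far apart as any in the set, since Eno2 was near 0 and Gapdh was the highest.

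Glycolytic genes are known targets of the hypoxia-inducible factors, whose core letters include ACGTG, and the promoters of the set were searched for ACGTG. RefSeq promoter windows (250 bases before to 50 after a gene start, GRCm38.p6) were found for 38 of the 40 genes and not for Idh3a and Slc2a3. ACGTG, on either strand, was in a window of 18 of the 38 genes, or 47.4%. Of all 27025 genes with a window 21.8% held ACGTG, and of the 4920 protein-coding genes with a window and 10 TPM or more, 32.0%. Among the 18, Pdhb, Idh3g, Mdh1 and Ogdh were of pyruvate entry and the cycle. The others were of glucose uptake, glycolysis and lactate. CACGTG, the E-box letters that contain ACGTG, were in 4 of the 38, or 10.5%, beside 8.09% of all genes and 13.3% of those of 10 TPM or more. GGGCGG, the GC box, was in 26 of the 38, or 68.4%, beside 38.2% of all genes and 71.0% of those of 10 TPM or more. A match is a stretch of letters and no measure of binding.

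The 250 bases before a start of Ldha and of Pgk1 are shown as examples with more than 1 match. ACGTG on either strand and the E-box are in capitals. The number of matches was not compared over the set. The Ldha stretch is chr7:46845554-46845803 (plus strand) with 3 matching stretches, of which 2 are the palindrome CACGTG, and the Pgk1 stretch is chrX:106186850-106187099 (plus strand) with 2.
Ldha: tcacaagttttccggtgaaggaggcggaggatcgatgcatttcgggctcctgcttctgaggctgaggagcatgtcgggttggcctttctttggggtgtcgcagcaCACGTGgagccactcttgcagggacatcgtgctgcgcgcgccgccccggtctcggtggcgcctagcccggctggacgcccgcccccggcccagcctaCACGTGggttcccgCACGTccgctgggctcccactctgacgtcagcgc
Pgk1: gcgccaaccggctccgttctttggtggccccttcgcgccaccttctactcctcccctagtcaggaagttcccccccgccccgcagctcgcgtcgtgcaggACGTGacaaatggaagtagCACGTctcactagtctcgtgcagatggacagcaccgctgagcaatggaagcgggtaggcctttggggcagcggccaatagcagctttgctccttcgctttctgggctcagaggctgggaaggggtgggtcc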

How the data were processed

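Total RNA-seq libraries from 2 pools of progenitors formed 1 group, numbered by the biological replicate in the labels. The authors deposited, for each library, a gene and a transcript table with expected counts, TPM, FPKM and, for transcripts, the percent of the gene's TPM. Per the text files deposited with them, values come from transcriptome alignments on mm10 with annotation M4. Neither the aligner nor the quantifier is named (not given in the sources used here), and strand use in counting is not stated. The 13 genes with an opposite-strand exon overlap may therefore be uncertain, to unlike degrees. The shared bases were 748 in Pfkp, 603 in Pdha1, 68 in Gapdh, 18 in Pfkm and 5 in Idh3b. The partner genes of Slc2a1, Hk3, Gpi1 and Aldoa had 0 counts in both libraries.

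Names, transcript types, coordinates and exons came from GENCODE M21, which is later than M4 and on the same assembly, by Ensembl identifier without version. Promoters came from RefSeq, GRCm38.p6. TPM covers all rows of a table, ribosomal, mitochondrial and spike-in rows included. Levels were compared as log2(TPM + 1), a scale that compresses ratios of low genes. A mean is given with its SD over 2 libraries. No test between isoenzymes was made, since an exact sign permutation over 2 libraries cannot give a p under 0.5. Depth gives a floor of 3 counts for a count of 0, which covers counting error only.

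The members and lists were chosen with earlier results of these data known. All 40 members are named, and of each further pathway list the 4 highest genes and those at 0 counts, except some genes that are not reported here. The rule was not used for a few further genes, chosen for their values.

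The spread between replicates was estimated by edgeR 4.0.16 (R 4.3.3, TMM factors), after rounding expected counts to whole numbers and dropping rows under 10 counts, and the step was checked on simulated data. DESeq2 1.42.0 size factors were an alternative. Copies were found with BLAST 2.17.0 and isoenzymes aligned with Biopython 1.88. Other steps used Python 3.11.15, numpy 2.4.6, pandas 2.3.3 and matplotlib 3.10.9. Other alternatives were other units, pseudocounts, filters and scalings, each library left out in turn, and protein-coding transcripts alone, which was chosen after seeing the data.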

Additional observations from a re-analysis of the deposited data

How the results depend on the processing

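The set had 37 genes at 1 TPM or more in each library under FPKM, under rescaled TPM and on protein-coding transcripts, 37 to 38 with a library left out, and 31 at 10 TPM. Rescaling left out Gm42418, Gm26917, Mir6236, Lars2 and the mitochondrial genes, which held 47.5% of TPM in replicate 1 and 45.5% in replicate 2, and shifted the median of protein-coding genes of 1 TPM or more by 0.85 on the log2 scale. By construction it moved the median log2 level of the glycolytic genes to 5.46 and of the cycle genes to 6.70, while FPKM gave 4.15 and 5.37. With a library left out these medians were 4.54 to 4.62 and 5.77 to 5.86. The pairs of isoenzymes apart were 14 under FPKM, rescaling and added copies. By CPM they were 15, with Suclg2 over Sucla2 in turned order and Slc2a1 with Slc2a3 overlapping. On protein-coding transcripts they were 16, with Suclg2 over Sucla2 and Mdh1 over Mdh2 in turned order and Pfkp with Pfkl overlapping. The order of Mdh1 over Mdh2 rested on the short transcript Mdh1-202. The leading isoenzyme held 82.9% in the median family, 93.2% by counts, which are not scaled for length, 89.6% on protein-coding transcripts, and 76.3% to 89.4% with a library left out. Of 33 alternative shares of single families that use both libraries, 26 moved by no more than the spread between libraries; shares with a library left out cannot move by more. The count of genes over 2-fold apart stayed at 0 except with a pseudocount of 0.1 and genes of 1 TPM or more, where it was 2 (Bpgm and Slc16a3). The M2 share of Pkm was 83.9% to 91.5% with a library left out, and the highest transcript matched that of the mean in 26 to 29 of 32 genes. Replicate spread over rows was a biological coefficient of variation of 0.593, and 0.252 over rows of 100 counts or more on average, since low counts vary most. Pairs and 2-fold calls need both libraries, so no value without a replicate was made. No paired analysis was possible because there was 1 group. Genes near the floor, such as Eno2, Pklr and Aldoc, rest on 15 counts or fewer per library.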
